A study of Zea mays with 36 samples.

Results

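The genes described here are 4 beta-tubulins of maize, tub3, tub4, tub6 and TUBB2, and 2 actin depolymerizing factors (ADF), ADF3 and adf2. They were chosen by name, as all probes whose gene annotation gives 1 of these symbols or synonyms. The 6 are among 740 genes with a probe of their own, 582 on a first set of cDNA slides and 455 on a second. They had 21 probes of the 30329 with values, 13 of 18302 on the first set and 8 of 12027 on the other. The gene identifiers are 542416 (tub3), 542417 (tub4), 542239 (tub6), 542380 (TUBB2), 542445 (ADF3) and 542584 (adf2). On the first slide set tub3 and tub4 had 1 probe each, TUBB2 had 2, tub6 had 4 and ADF3 had 5. On the second TUBB2 and adf2 had 1 probe each, ADF3 had 2 and tub6 had 4.

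The study set RNA of laser-captured vegetative shoot apical meristems (SAM), taken with the P0 and P1 leaf primordia, against RNA of whole seedlings without roots, both from the inbred line B73 at 14 days. Each of 6 biological replicates paired a pool of 6 to 10 meristems with a pool of 6 seedlings from the same batch of plants, and each pair was hybridised to 1 slide of each set. SAM RNA carried Cy3 on 3 slides of a set and Cy5 on the other 3. The seedling pools contain meristems too, and the RNA of each tissue was extracted by its own method, so tissue and extraction cannot be told apart. In such bulk RNA, fewer cells of a type and less RNA per cell cannot be told apart either.

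Beta-tubulin pairs with alpha-tubulin, and these dimers polymerise into microtubules. In plant cells microtubules form the preprophase band, the spindle and the phragmoplast of dividing cells, and in growing cells they guide the enzymes that lay down cellulose. Plants hold several genes for each tubulin, called isotypes, and the encoded proteins are very alike. ADF proteins sever actin filaments and speed their turnover; in maize adf2 is known from pollen, and ADF3, also called ABP3, from vegetative tissue.

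Values are log2 ratios of the 2 tissues. Their direction, not given in the sources used here, was read from marker genes and is called likely. Of 9 genes of leaf photosynthesis measured on first-set slides, 7 passed below 0 (list median −5.71), 1 (PSBQ) did not pass, and Cab-m7 passed above 0, at 1.09 ± 0.92. All 8 measured on second-set slides passed below 0 (list median −5.48). PSBQ and Cab-m7 were among these 8, at −6.07 ± 0.87 and −4.28 ± 0.42, so both lay far from their first-set means (0.26 and 1.09). Of the meristem markers 2 of 3 passed above 0 in the first set and 4 of 5 in the second. Among them te1 lay at 6.77 ± 0.91 and 3.58 ± 0.38 (SD, n = 6) in the 2 sets. The homeobox gene kn1 lay at 0.30 ± 0.25 and did not pass in the first, and lay at 1.95 ± 0.37 in the other. The related gene knox3 of the second set lay at 0.0029 ± 1.69, above 0 on 2 of 6 slides. Ratios above 0 are named the SAM side here, and ratios below 0 the seedling side. Were the direction the other way, both names would change places throughout. Slides of opposite dye orientation correlated at 0.70 to 0.86 over all probes of the first set and 0.60 to 0.74 of the second. Those of the same orientation correlated more closely, at 0.86 to 0.90 and 0.85 to 0.90. A source label of 1 first-set scan (replicate 4, high) gives seedling for each dye, while the name of the sample puts SAM in Cy5; the name was followed.

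The beta-tubulins lay on both sides. On the first slide set tub3 and TUBB2 were on the SAM side, and tub4 and tub6 were on the seedling side. Both ADF genes lay on the seedling side wherever they were measured. A gene passed where limma's adjusted p was under 0.05, with Benjamini-Hochberg adjustment over all features of a set. All 5 genes measured on the first set passed, 2 toward SAM and 3 toward seedling, and their median log2 ratio was −0.82. Of all 17097 features there 63.1% passed, 32.2% toward SAM and 31.0% toward seedling, and the median feature lay at 0.05. All 4 genes of the second set passed toward seedling (median −1.12). Of its 11729 features 64.5% passed, 33.7% toward SAM and 30.8% toward seedling (median 0.04). With so many features passing, a pass alone sets these genes little apart.

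**Figure D1:**
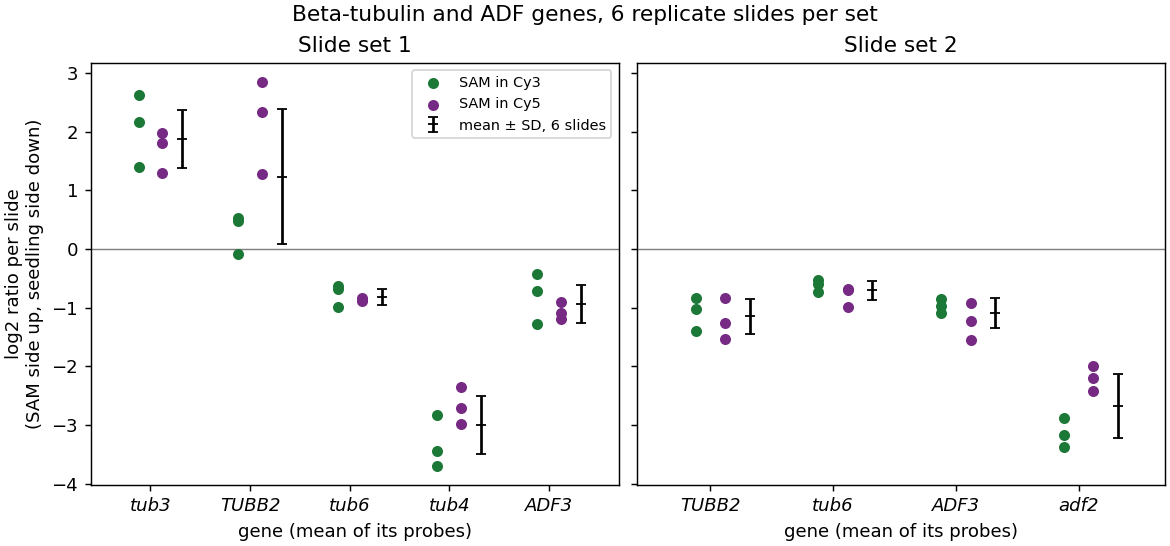
Log2 ratios of SAM to seedling RNA for each beta-tubulin and ADF gene on the 6 slides of each set, as the mean of a gene's probes; green points are slides with SAM in Cy3, purple points slides with SAM in Cy5, and black bars the mean ± SD. All 6 slides lie above 0 for tub3 and below 0 for tub4, tub6 and ADF3 of the first set, while the TUBB2 slides of that set part by dye and reach from −0.09 to 2.84.

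The beta-tubulin tub3 had the highest mean ratio of the 4, though its gap from TUBB2 of the first set did not pass (exact sign-flip p = 0.281), and with SAM in Cy5 TUBB2 averaged 2.15, above tub3. Its slide values ran from 1.29 through a median of 1.88 to 2.62. All 6 slides were on the SAM side, and their mean was 1.87 ± 0.49, a ratio of 3.66-fold (limma adjusted p = 0.00018). Of all features on that set, 94.4% lay lower. The slides with SAM in Cy3 averaged 2.06 and those with SAM in Cy5 1.69, so both orientations gave the same side (dye term 0.19, adjusted p = 0.503). The value is that of a single clone.

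The beta-tubulin tub4 was farthest to the seedling side. Its slides ran from −3.69 through a median of −2.91 to −2.34, and none came near 0. The mean was −3.00 ± 0.49, which is 8.00-fold lower in SAM RNA (limma adjusted p = 1.44e-05). Only 5.43% of all features lay lower. Its averages in the Cy3 and Cy5 orientations were −3.32 and −2.68. This too is a single clone, and it was measured on the first set alone.

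The beta-tubulin tub6 was moderately on the seedling side, by nearly the same amount on both sets. Its first-set slides ran from −0.99 to −0.63 around a median of −0.85. The mean there was −0.82 ± 0.13, or 1.76-fold lower in SAM RNA (limma adjusted p = 0.000676). On the second set the slides ran from −0.99 to −0.52 around a median of −0.69, with a mean of −0.70 ± 0.16, or 1.63-fold lower (adjusted p = 0.000506). The spread over slides was the smallest of the member genes on each set, though each value is a mean of 4 probes. Singly, these probes had SDs from 0.10 to 0.47 on the first set and from 0.17 to 0.39 on the second. The difference between the sets, −0.12, was within the spread of the slides (exact permutation test of 6 slides against 6, two-sided p = 0.197).

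ADF3 lay on the seedling side by a similar amount on both sets. Its first-set slides ran from −1.28 to −0.42 around a median of −0.996, and its second-set slides from −1.54 to −0.85 around a median of −1.03. All 12 slides were on that side. The means were −0.93 ± 0.32 (limma adjusted p = 0.00127) and −1.10 ± 0.26 (adjusted p = 0.000191), or 1.91-fold and 2.14-fold lower in SAM RNA. The sets differed by 0.16, within the spread of the slides (exact permutation p = 0.357).

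The other ADF gene, adf2, had 1 probe on the second set and lay farther to the seedling side. Its slides ran from −3.38 through a median of −2.65 to −1.999. The mean was −2.67 ± 0.55, or 6.37-fold lower in SAM RNA (limma adjusted p = 6.86e-06). The ratio moved with the dye: it averaged −3.14 with SAM in Cy3 and −2.21 with SAM in Cy5. The dye term, the distance of either orientation from their mean, was −0.46 (adjusted p = 0.0485), and 8.33% of all features of that set passed for the dye. Both orientations gave the same side.

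Differences between isotypes were taken within a slide, since each slide carries all the clones of its set. Of 8 pairs compared, 7 differed in the same direction on all 6 slides. Each of these 7 had an exact sign-flip permutation p of 0.03125, two-sided, the smallest that 6 slides allow, and 0.0357 after Benjamini-Hochberg adjustment over the 8 pairs. The log2 ratio of tub3 was higher than that of tub4 by 4.87 ± 0.86, from 3.63 to 6.30 over the slides. It was higher than that of tub6 by 2.69 ± 0.48. The ratio of tub4 was lower than that of tub6, the difference being −2.18 ± 0.61. TUBB2 of the first set was above tub4 and tub6: tub4 minus TUBB2 was −4.23 ± 0.99 and tub6 minus TUBB2 was −2.05 ± 1.22. With SAM in Cy3 these averaged −3.62 and −1.07, and with SAM in Cy5 −4.83 and −3.02. For tub3 and TUBB2 the difference of 0.64 ± 1.37 was within the spread of the slides, with tub3 higher on 4 of 6 (exact sign-flip p = 0.281). It averaged 1.76 with SAM in Cy3 and −0.47 with SAM in Cy5, and it was 0.23 without replicate 5. Between the 2 ADF genes of the second set, ADF3 was higher than adf2 by 1.57 ± 0.74, and this averaged 2.17 with SAM in Cy3 and 0.98 with SAM in Cy5.

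**Figure D2:**
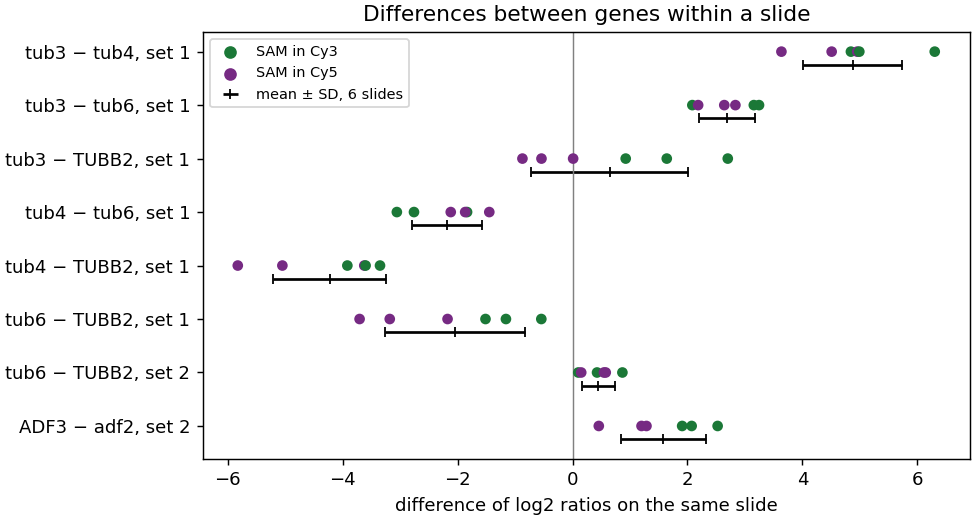
Differences of log2 ratios between 2 genes on the same slide, 1 point per slide (green, SAM in Cy3; purple, SAM in Cy5) with the mean ± SD beneath. The 6 points lie on 1 side of 0 for every pair but tub3 and TUBB2, and the widest gap is that of tub3 and tub4, at 4.87.

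TUBB2 was the one member whose sets lay on opposite sides of 0. On the first set its slides ran from −0.09 through a median of 0.90 to 2.84, with a mean of 1.23 ± 1.15 (limma adjusted p = 0.0024). On the second set they ran from −1.53 through −1.14 to −0.83, with a mean of −1.15 ± 0.29 (adjusted p = 0.000375). The first set was higher for all 6 RNA pairs, by 2.37 ± 1.29. An exact permutation test of 6 slides against 6 gave a two-sided p of 0.00216, the smallest possible, and 0.00649 adjusted over the 3 genes measured on both sets. With the replicate number as a block the exact sign-flip p was 0.03125, again the smallest possible. Adjusted over the 3 genes this blocked p was 0.0938 and did not pass; with 6 pairs, 1 gene of 3 alone cannot pass. The difference tub6 minus TUBB2 was thus −2.05 among first-set slides and 0.44 ± 0.29 among second-set slides, each with 1 sign on all 6 slides.

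The 3 clones of TUBB2 differed in how they behaved. Probe 6113 of the first set ran from 0.17 to 0.997, with a mean of 0.80 ± 0.31 (limma adjusted p = 0.00203 over all probes). Its mean over slides was nearly the same in the low, medium and high scans, at 0.93, 0.76 and 0.72. Probe 6258 of the second set had means on the other side as near each other, at −1.10, −1.16 and −1.17. No slide value of the one overlaps with the other. Probe 16181 of the first set lay at 1.66 ± 2.11, and its value turned on the dye. With SAM in Cy3 it averaged −0.04, and with SAM in Cy5 3.35 (dye term −1.70, adjusted p = 0.038; 12.7% of all probes of that set passed for the dye). Its 3 slides with SAM in Cy5 averaged 5.75 in the low scan, 2.33 in the medium and 1.99 in the high, with a single low scan at 9.03.

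Without probe 16181, a choice made after seeing the data, TUBB2 of the first set lay at 0.80 and still passed on the SAM side (limma adjusted p = 0.00207). It lay 1.95 above the second set (exact permutation of 6 slides against 6, taken as unpaired, p = 0.00216). The difference tub3 minus TUBB2 was then 1.07, with tub3 higher on all 6 slides (exact sign-flip p = 0.03125). Those of tub4 minus TUBB2 and tub6 minus TUBB2 were then −3.80 and −1.62. With both probes but only the slides with SAM in Cy3, TUBB2 of the first set lay at 0.30 and did not pass (limma adjusted p = 0.265). On those slides probe 6113 by itself lay at 0.65 and did not pass either (limma adjusted p = 0.0608 over all probes).

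**Figure D3:**
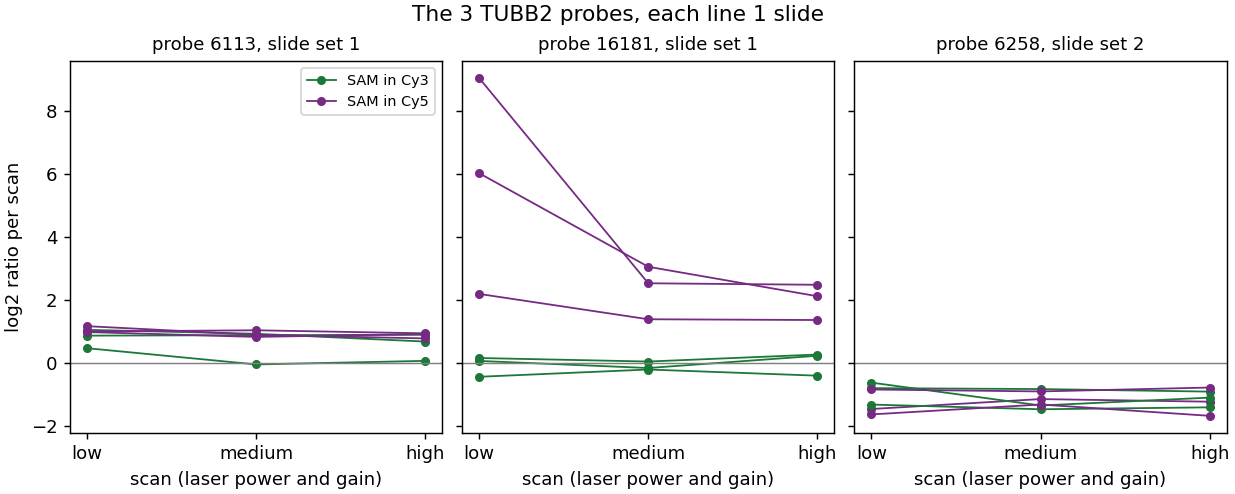
Log2 ratios of the 3 TUBB2 probes in the low, medium and high scan of each slide, 1 line per slide (green, SAM in Cy3; purple, SAM in Cy5). Probe 6113 averages 0.80, with the slide of replicate 5 lowest at a mean of 0.17, and probe 6258 averages −1.15 and is below 0 in every scan. Probe 16181 averages −0.04 with SAM in Cy3 and reaches 9.03 in a low scan with SAM in Cy5.

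For the genes with several clones the clones mostly gave the same side. In the fit over single probes, 12 of 13 member probes of the first set passed, 3 toward SAM and 9 toward seedling, beside 62.5% of all its probes, 31.5% toward SAM and 31.0% toward seedling. All 8 of the second set passed toward seedling, beside 64.6% of all its probes, 33.4% toward SAM and 31.2% toward seedling. The 8 probes of tub6 were all among these, on the seedling side. Their means reached from −1.14 to −0.43 on the first set and from −1.06 to −0.45 on the second. In the high scan alone 2 of them did not pass, probe 15506 at −0.20 (limma adjusted p = 0.109) and probe 1755 at −0.12 (adjusted p = 0.258). With the 3 SAM-in-Cy3 slides alone 4 tub6 probes did not pass, among them probe 10976 at −0.40 (adjusted p = 0.247) and probe 1755 at −0.12 (adjusted p = 0.44), and on those with SAM in Cy5 alone 2 did not, probes 15506 and 10483. The ADF3 probes 2842 and 10449 did not pass with SAM in Cy3 alone, at −0.73 and −0.59 (adjusted p = 0.058 and 0.0647). Of the 7 probes of ADF3, 6 passed on the seedling side, with means from −1.41 to −0.79. The remaining one, probe 14223, lay at −0.47 ± 0.60 and did not pass (adjusted p = 0.109); without replicate 3 it passed, at −0.69 (adjusted p = 0.0158). No member probe stood at the most frequent value of a scan, which as many as 1494 spots of a scan shared. Tubulin clones can also bind RNA of other isotypes, and the part of this in the values was not tested.

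**Figure D4:**
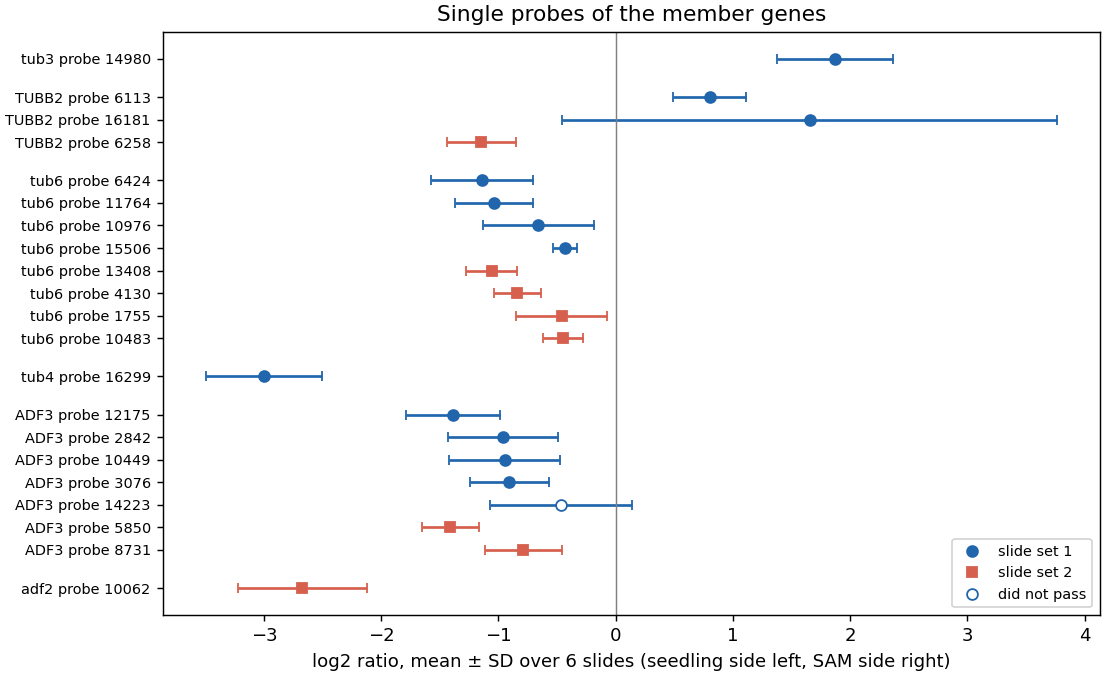
Mean log2 ratio ± SD over 6 slides for each of the 21 member probes, as blue circles on the first slide set and red squares on the second; the open circle did not pass. The tub6 and ADF3 probes all lie left of 0, and the TUBB2 probes lie on both sides.

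Among other cytoskeleton genes, matched by name, the alpha-tubulins and the other beta-tubulins lay on the seedling side or near 0. The gamma-tubulin tubg1, of the complex that starts new microtubules, lay at 0.31 ± 0.30 on the first set, above 0 on 5 of 6 slides, and did not pass (limma adjusted p = 0.0598). Of all features 31.0% of the first set and 30.8% of the second passed toward seedling, against which the class counts are to be read. Among first-set genes, 3 of 4 alpha-tubulins and 1 of 2 other beta-tubulins passed on the seedling side, with means from −0.96 to −0.09 and from −0.58 to −0.15. On the second set 2 of 4 alpha-tubulins, from −1.04 to 0.14, and both other beta-tubulins, at −0.42 and −0.41, did so. Of these alpha- and beta-tubulins only tua3 and tua6 of the second set had means above 0, at 0.14 ± 0.17 and 0.10 ± 0.39, and neither passed (limma adjusted p = 0.189 and 0.605), while tub3 lay at 1.87. A profilin binds actin monomers; 1 of 3 profilin genes of the first set and 2 of 4 of the second passed on the seedling side. One of the latter, prf1 at −0.69 ± 1.56, was above 0 on 3 of 6 slides and moved with the dye (dye term −1.38, limma adjusted p = 0.00567). The third ADF gene, adf1, lay at −0.56 ± 0.81 on the second set (adjusted p = 0.0301).

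In all, 4 of the 22 other cytoskeleton genes passed toward SAM in the first set and 7 toward seedling (median −0.12), beside 32.2% and 31.0% of all features. In the second, 2 of 21 passed toward SAM and 9 toward seedling (median −0.33), beside 33.7% and 30.8%. The smallest adjusted p on the SAM side belonged to kinesins, motors that move along microtubules, and to a ROP GTPase, a switch of cell polarity. On the first set these were kin4 at 1.47 ± 0.33, rop6 at 1.64 ± 0.30 and KIN8 at 2.10 ± 1.73, whose ratio moved with the dye (dye term −1.40, limma adjusted p = 0.0407). On the second they were KIN8 at 1.68 ± 0.40 and KIN6 at 0.40 ± 0.13. On the seedling side the first set had TUA1 at −0.91 ± 0.29 and tua6 at −0.96 ± 0.49, both alpha-tubulins, and tub5 at −0.58 ± 0.36. The second had tua5 at −1.04 ± 0.22, rop5 at −1.52 ± 0.59 and the kinesin kin15 at −1.18 ± 0.35.

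**Figure D5:**
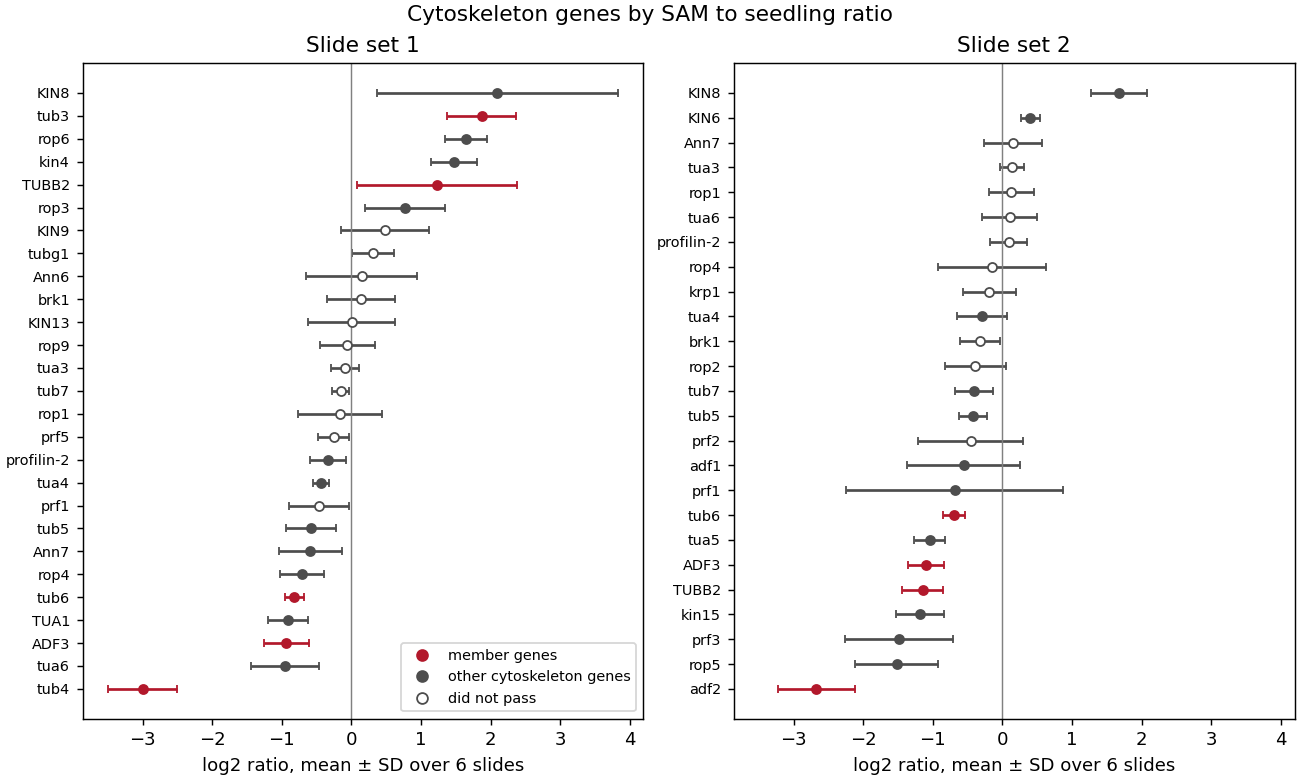
Mean log2 ratio ± SD over 6 slides of the member genes (red) and the other cytoskeleton genes (grey) of each slide set, in order of the mean; open points did not pass. On the first set tub3 and tub4 stand near the top and at the bottom of the order, and on the second adf2 is at the bottom.

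Genes of dividing cells lay on the same side as tub3. Of 5 such markers in the first set all passed toward SAM, from 0.81 to 2.03, among them the replication clamp pcna2 at 1.32 ± 0.12, and so did all 3 on the second, from 1.22 to 1.81. Of all features 32.2% and 33.7% passed toward SAM. The part of cell division in the tubulin ratios was not tested.

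The named genes with the slide values most like those of a member were found by the root mean square difference over the 6 slides of a set. For tub3 they were the cyclin cyc1 (csh9) at a difference of 0.47, the kinase MTK-4 at 0.47 and the spindle checkpoint gene mad2 at 0.49. For tub4 they were NRH2b at 0.29, the ribosomal protein arpp2b at 0.39 and the aquaporin PIP1-3 at 0.44. For adf2 they were CP24 (lhcb6), a light-harvesting protein, at 0.25, mir3 at 0.32 and prp2 at 0.38. The nearest to tub6 in the first set was GF14-6, a 14-3-3 protein, at 0.17, and in the other plt2, also at 0.17. ADF3 was nearest to dehydrin3 on the first set (0.13). On the second set ADF3 and TUBB2 were each other's nearest gene among 455 named genes, at 0.15. For TUBB2 of the first set the nearest was tbp2, at 0.46, about as far as the nearest gene of tub3 (0.47).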

How the data were processed

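Per the labels' protocols, about 10 ng of RNA per pool was amplified by T7 polymerase, 2 µg of the product was labelled, odd and even replicates carried opposite dyes, and 3 of 7 scans per slide were chosen. The authors deposited 1 normalized log ratio per spot and scan, read here as a natural log and converted to log2. The sources used here do not name the log base: repeated values within a scan lay 2 logs of a whole number apart (tolerance 0.0005) in 170 of 26307 pairs (0.646%) as natural logs, 15 of 22440 as log2 and 18 of 22170 as log10, so the base, on which each fold rests, was read from under 1% of pairs. The sources also leave normalization, background handling and numerator unstated. Column medians lay within 0.08 log2 of 0.

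Values of a scan were centred on their median, and a slide was taken as the mean of its 3 scans. Spots identical in all scans counted once. Features were genes (mean of their single-gene probes; 582 and 455) and every other probe. limma 3.58.1 (R 4.3.3, data.table, version 1.17.8) fitted an intercept and a dye term per set (lmFit, eBayes), with Benjamini-Hochberg adjustment over all features or probes; values were needed in 4 replicates and 2 per orientation. Precision is limited by how many slides there are; standard errors had medians of 0.16 and 0.12. The same named RNA pools were on both sets, so replicate numbers pair the slides. Same-numbered deviations correlated only at 0.05 to 0.26, and first-set replicates 2 and 6 correlated best with second-set replicates 1 and 2. Scripts were tested on simulated data. Figures used Python 3.11.15, pandas 2.3.3, numpy 2.4.6 and matplotlib 3.10.9.

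Gene names came from the platform annotation and a RefSeq gene table (assembly Zm-B73-REFERENCE-NAM-5.0). The symbols and synonyms of that table also served to find the members, the other cytoskeleton genes and the markers by name. Members and lists were chosen with earlier results of these data known. Named genes were all members, the 3 other cytoskeleton genes with the smallest adjusted p per direction and set, the 3 nearest genes of each member (not all printed) and the markers; adf1 and single classes were described after their values were seen. The marker name pdk1 answered to another gene and was left out. Alternatives were no centring, each scan alone, equal spread, no dye term, robust eBayes, each orientation alone, each replicate left out, complete values, the median of probes and a 2-fold limit. Leaving out floor spots and leaving out probe 16181 were added after seeing the data.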

Additional observations from a re-analysis of the deposited data

Results flagged for a closer look

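TUBB2 differed between the slide sets by 2.37 on the log2 scale, the first set being on the SAM side and the second on the seedling side. Different clones carry the gene on the sets, and what each clone binds was not tested. Other tubulins could change side too: tua6 passed at −0.96 on the first set and lay at 0.10 on the second, where it did not pass. The means of tua4, tub5 and tub7 were below 0 on both sets.

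The ratio of 2 member probes depended on the dye by limma. The dye term was −1.70 for TUBB2 probe 16181 of the first set and −0.46 for the adf2 probe 10062 of the second.

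In 3 of 30 groups of 6 slides, 1 slide stood apart from the other 5 (by Dixon's test of the gap over the range, at a level that chance reaches in about 1 of 20 groups). The groups share slides, and with 21 member probes they share probes too, so 3 of 30 cannot be weighed against that rate. Replicate 5 of the first set lay at 0.22 for tub6 probe 10976, above the others. The same replicate lay at 0.17 for TUBB2 probe 6113, below the others. Replicate 6 of the second set lay at −0.80 for tub6 probe 10483, below the others.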

How the results depend on the processing

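Of 163 values of the 9 member gene ratios under the alternatives, 162 kept their direction and side of the threshold. The exception was TUBB2 of the first set on slides with SAM in Cy3 alone (0.30). Leaving out any 1 replicate changed no call of a member gene; TUBB2 of the first set then ran from 1.06 to 1.45. Of the isotype differences, tub3 minus TUBB2 passed without probe 16181 (1.07), by that probe's removal, and without a test it was −0.47 with SAM in Cy5 alone; with 5 or 3 slides these differences were compared as values only. Of 357 values of member probes 14 changed. Probe 16181 turned to −0.042 with SAM in Cy3 alone and did not pass without a dye term (adjusted p = 0.0821). With the replicate number as a block the difference of TUBB2 between the sets stayed 2.37 (exact sign-flip p = 0.03125), and those of tub6 and ADF3 did not pass (p = 0.219 and 0.156); the block changed no call before adjustment. Asking for a 2-fold change left 2922 first-set features toward SAM and 3303 toward seedling, against 5498 and 5296. On the second it left 1709 and 2053, against 3951 and 3613. Of other cytoskeleton genes it left 0 of the 7 first-set genes toward seedling, since none of these limma calls was of that size, and of the second set 1 toward SAM and 4 toward seedling. With SAM in Cy5 alone 3 first-set genes passed toward seedling, and with SAM in Cy3 alone 1 second-set gene toward SAM, with fewer slides in each fit. The 9 second-set genes toward seedling became 6 with the low scan alone and 6 with no dye term. They became 11 with no centring and 11 with the medium scan alone. Signal over background could not be read from ratios.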
